A study of Cynara cardunculus with 12 samples.

Results

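In friable callus of cardoon (Cynara cardunculus), a run of 668 of the 26505 counted genes, on 38 scaffolds, had a higher median RNA level in replicates 1 and 3 of the transgenic line L24 than in its replicate 2 and in any sample of the other groups. The run was chosen from these very values: it holds every gene numbered from Ccrd_010729 to Ccrd_011403 except Ccrd_010818, a stretch of identifiers picked because the medians of its scaffolds, as log2 ratios to the WT mean, set L24 replicates 1 and 3 apart. The differences between L24 replicates, the per-sample medians and the comparison of L24 with WT are therefore described here without a test. Tests are given for L1 against WT, L18 against WT and L1 against L18, groups that the choice did not contrast with each other. The choice did use the medians of these groups, set against L24. The shares of members called in these comparisons are therefore not independent of it. The estimate of spread in these tests, moreover, came from all 12 samples, L24 included.

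The study asked how overexpression of AtMYB4, an Arabidopsis R2R3-MYB repressor of the phenylpropanoid pathway, changes cultured cardoon cells, and sequenced RNA of 12 callus samples, 3 of each of 4 groups. L24, L1 and L18 are independent transgenic lines, each grown from 1 resistant callus of leaf-derived cells of the "Spagnolo" genotype and carrying AtMYB4 behind the constitutive CaMV 35S promoter. L24 and L1 came from infection with the Agrobacterium strain AGL1 and L18 from EHA105. All lines were kept on medium with phosphinothricin and cefotaxime and were at sub-culture XIV. WT callus was untransformed, grown without selection and at sub-culture XXII, and was sub-cultured at longer intervals than the lines. The study states growth in the dark for WT callus and does not restate it for the selected lines. Transgene, selection, passage and culture thus cannot be told apart between a line and WT. No callus with an empty vector was among the groups, and expression of the transgene itself was not analysed here. The 3 replicates are RNA preparations of 1 WT culture or 1 line, and nothing states that they came from separate cultures. The tests below thus measure the spread between such samples, which may be technical.

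Genes that lie next to each other on a scaffold share a stretch of chromosome, but each has its own promoter, and neighbours in a plant genome usually differ in level and in when they are switched on. The RNA of a gene depends on the number of its copies in the cells, on how often each copy is read and on how long the RNA lasts. Callus kept in culture is known for somaclonal variation, heritable change that arises between cells of one plant during culture. DNA was not sequenced in this series. In bulk RNA, fewer cells of a type and less RNA per cell cannot be told apart.

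Of the 668 genes, 57 had no count in any sample and 611 had at least 1, 34 of the counted ones had none in any L24 sample, 545 passed the filter on low counts and were tested among 20024 genes, and 400 had a mean level of 3 or more in log2 CPM (counts scaled to a common library total). The values per sample and per scaffold below rest on these 400 genes, set beside the 12753 genes outside the run that reached the same level. Counted reads numbered 12505275 to 19509803 a sample, and L24 replicate 2 had the fewest. The counts were scaled for depth by TMM, with factors from 0.854 to 1.10. As a sign of green cells, the summed FPKM (counts scaled by exon length and library total) of 17 genes for light-harvesting and photosystem proteins was 96.0, 77.2 and 107 in L24, 281 to 305 in L1, 283 to 329 in L18 and 119 to 160 in WT, so that the 3 L24 samples lay below all others. These genes were named from lists that hold only genes the study had selected, so that differences of the sum between groups are not independent findings. The part of this sum in the values of the run was not tested.

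The median member of the run stood at a log2 ratio to the WT mean of 0.50 in L24 replicate 1 (1.41-fold), −0.10 in replicate 2 (0.933-fold) and 0.29 in replicate 3 (1.22-fold). In L1 the medians were 0.02, −0.02 and −0.03, in L18 −0.08, −0.07 and −0.10, and in WT −0.03, −0.02 and 0.01. L24 replicate 2 thus sat with the 9 samples of the other groups, at the level of the lowest L18 sample, and replicates 1 and 3 sat above all of them. The genes outside the run had medians of −0.05, −0.05 and −0.07 in L24 and between −0.04 and 0.00 elsewhere. Members above the WT mean made up 82.8% of the run in L24 replicate 1, 44.2% in replicate 2 and 68.5% in replicate 3, against 42.2% to 51.8% in the other groups. Of all counted reads, 6.50%, 4.35% and 5.49% fell on the run in L24, and 4.26% to 4.52% in the 9 other samples.

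**Figure D1:**
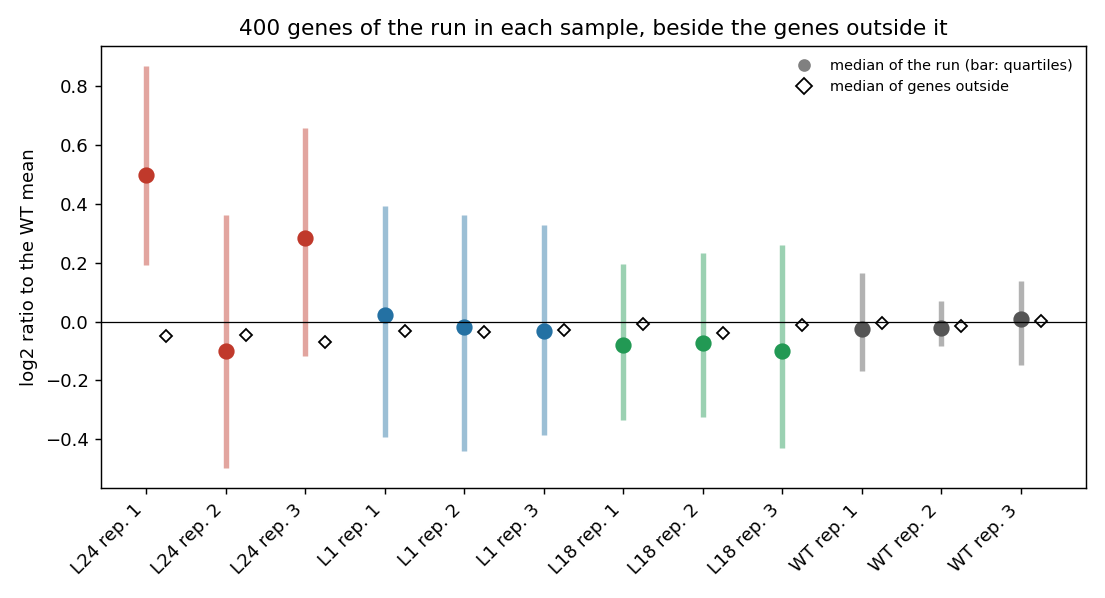
Log2 ratio to the WT mean (y axis) of the 400 genes of the run with a mean level of 3 or more in log2 CPM, in each of the 12 samples (x axis): filled points are medians, bars run between the quartiles, and open diamonds are the medians of 12753 genes outside the run. L24 replicates 1 and 3 stand at 0.50 and 0.29 while L24 replicate 2 and the samples of L1, L18 and WT lie between −0.10 and 0.02.

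The replicates of L24 differed gene by gene in the same order. L24 replicate 1 exceeded replicate 2 by a median of 0.58 on the log2 scale (1.50-fold, quartiles 0.28 and 0.90), while the median outside the run was 0.00. Higher in replicate 1 were 357 of the 400 members (89.25%), against 50.3% of the genes outside. Replicate 3 exceeded replicate 2 by a median of 0.37 (1.30-fold, quartiles 0.21 and 0.51), while the median outside the run was −0.03. Higher in replicate 3 were 364 of 400 members (91%), against 45.3% of the genes outside. Replicate 1 exceeded replicate 3 by a median of 0.26, against 0.05 outside, and in 299 of 400 members (74.75%), against 55.5% of the genes outside. Replicate 3 therefore lay between the other L24 samples, nearer to replicate 1. In each of the other groups the same differences between pairs of replicates had medians of 0.00 to 0.09 in size.

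Replicates 1 and 3 both lay above replicate 2 in 341 of the 400 members (85.2%), while 34.3% of all genes at this level did so. The order replicate 1, replicate 3, replicate 2 from high to low held for 282 members (70.5%), against 28.3% of all genes, and both lay below replicate 2 in 20 members (5.00%), against 36.2%. L24 replicate 1 was above all 9 samples of L1, L18 and WT in 229 members (57.2%, 14.2% of all genes), replicate 3 in 132 (33.0%, 12.8% of all genes) and replicate 2 in 48 (12.0%, 14.7% of all genes). L24 replicate 1 was below all 9 samples in 11 members (2.75%, 16.5% of all genes), replicate 2 in 70 (17.5%, 18.7% of all genes) and replicate 3 in 14 (3.50%, 18.5% of all genes). In 71 members (17.8%, 2.08% of all genes) replicates 1 and 3 exceeded all 9 while replicate 2 did not. The choice of the run set these shares, and nothing is read from their distance to the background. A difference of at least 1 on the log2 scale was seen between replicates 1 and 2 in 71 members that were higher in replicate 1 and in 1 that was lower, so that for most members the difference was a modest one.

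The run crosses many scaffolds of the CcrdV1 assembly, and the pattern was seen on most of those with enough genes. Medians of scaffolds were what the run was chosen from, so that the counts of scaffolds here are a description only. There were 22 scaffolds with at least 5 such members, holding 373 of the 400. L24 replicate 1 had the highest median of the 12 samples on 17 of them, replicates 1 and 3 were both above all 9 samples of the other groups on 14, and replicate 2 lay within the range of those 9 on 16. The largest, scaffold 29 with 50 members, had medians of 0.60, 0.08 and 0.40 in L24 replicates 1, 2 and 3, against 0.01 to 0.22 in L1, −0.11 to −0.07 in L18 and −0.10 to 0.06 in WT. Scaffold 259 (14 members) had the highest values for L24 replicate 1, with 0.89, 0.18 and 0.49 in L24, and scaffold 243 (10 members) the widest gap between replicates 1 and 2, at 0.92. On scaffolds 1061 (7 members) and 1010 (14 members) replicate 3 was slightly above replicate 1, at 0.51 and 0.45 on the first and 0.26 and 0.23 on the second. The remaining 27 members lay on 12 of the 16 smaller scaffolds, where replicate 1 was above replicate 2 on all 12 and replicate 3 above replicate 2 on 11. Whether scaffolds with consecutive identifiers are also neighbours on a chromosome was not tested.

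**Figure D2:**
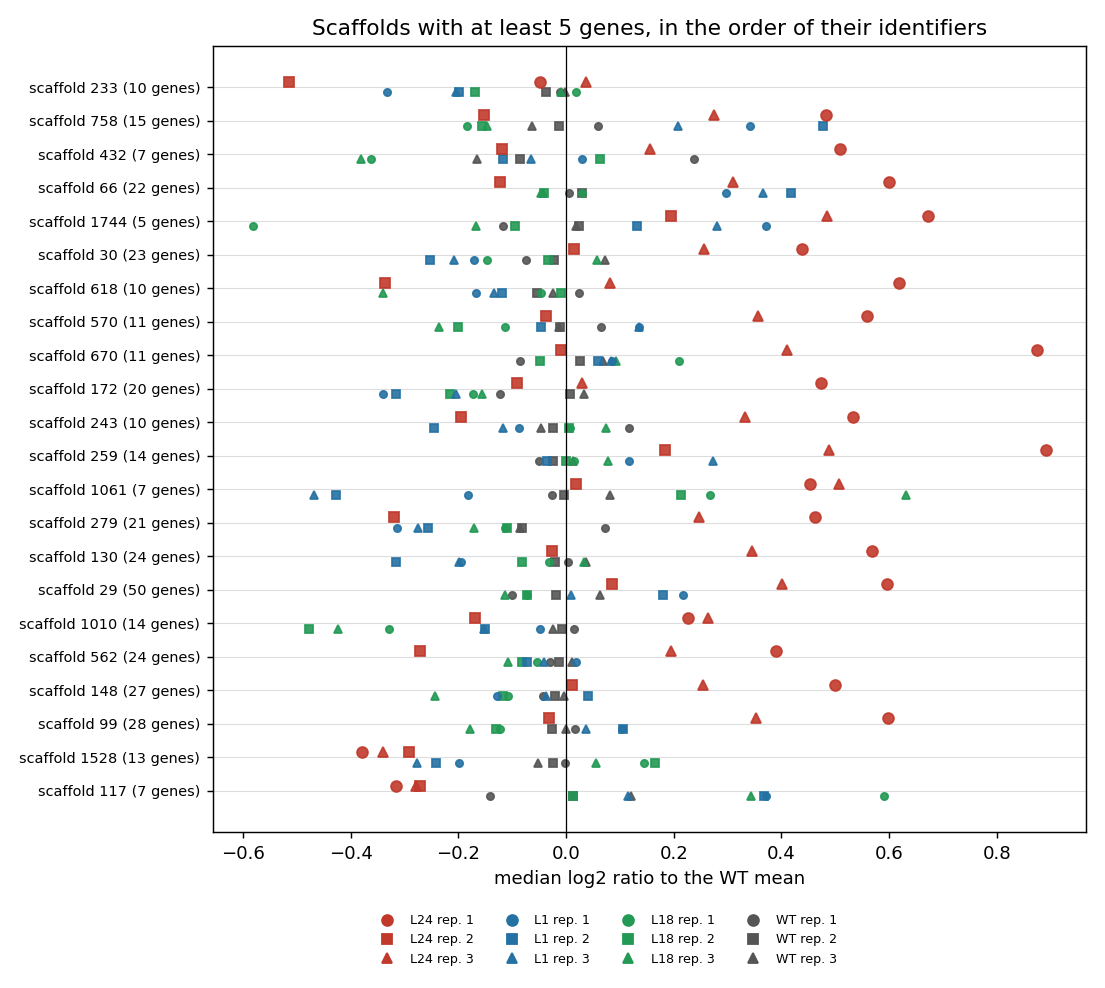
Median log2 ratio to the WT mean (x axis) of each sample on the 22 scaffolds with at least 5 members (y axis, from the first identifiers at the top), with L24 drawn above L1, L18 and WT in each row. L24 replicate 1 is the rightmost point on 17 scaffolds, and the 3 L24 samples lie together on scaffolds 1528 and 117 at the end of the run.

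The ends of the run differed in sharpness. On scaffold 99, which ends with Ccrd_011378, the L24 medians were 0.60, −0.03 and 0.35 over 28 members. On scaffold 1528, which begins with Ccrd_011379, they were −0.38, −0.29 and −0.34 over 13 members, and on scaffold 117 they were −0.32, −0.27 and −0.28 over its 7 members. The difference between replicates 1 and 2 went with it, with 0.61 on scaffold 99, 0.10 on scaffold 1528 and −0.04 on scaffold 117. The identifiers from Ccrd_011379 on thus did not show the pattern that chose the run. Without the scaffolds at both ends, an alternative added after the data were seen, the medians of L24 were 0.55, −0.09 and 0.31.

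The change at the end of scaffold 99 was one of shares and medians, and single genes varied. On scaffold 99 replicate 1 was above replicate 2 in 26 of 28 members, and replicate 3 in 27. On scaffold 1528 replicate 1 was above replicate 2 in 8 of 13 members, and replicate 3 in 5. Ccrd_011378, the last gene of scaffold 99, had log2 ratios of −0.21, −1.02 and −0.45 in L24 replicates 1, 2 and 3, and Ccrd_011380 on scaffold 1528 had −0.36, 0.16 and 0.16. The last members, Ccrd_011401 (201, 175 and 193 normalized counts in L24), Ccrd_011402 (156, 224 and 197) and Ccrd_011403 (1268, 1308 and 1214), showed no common order. Nor did the next genes beyond the run, with 232, 281 and 253 normalized counts in L24 for Ccrd_011404, 711, 774 and 657 for Ccrd_011407 and 712, 680.1 and 736 for Ccrd_011408.

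At the start the change was gradual. The first members, Ccrd_010729 (199, 187 and 244 normalized counts in L24), Ccrd_010730 (147, 194 and 234) and Ccrd_010731 (577, 477 and 475), did not follow the order of the run, and scaffold 233, on which they lie, had L24 medians of −0.05, −0.51 and 0.04 over 10 members. Further along the same scaffold Ccrd_010742 had 70487, 32977 and 45348 normalized counts in L24. Just before the run, Ccrd_010719 (3309, 1674 and 2285), Ccrd_010720 (666, 310.1 and 448), a magnesium transporter of the CorA type, and Ccrd_010721 (179, 129.6 and 142), an oligopeptide transporter, had the order replicate 1, replicate 3, replicate 2 as well. The 23 genes of the block of 50 identifiers before the run had medians of −0.49, −0.69 and −0.74 in L24 and −0.71 to −0.64 in L1, below WT in both lines, and replicate 1 exceeded replicate 2 there by a median of 0.26.

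Up to the last scaffolds the blocks of the run kept the order of the L24 replicates, with 1 exception. In the 13 blocks of 50 identifiers from Ccrd_010729 to Ccrd_011378 the median for L24 replicate 1 ran from 0.36 to 0.63, for replicate 3 from 0.05 to 0.51 and for replicate 2 from −0.38 to 0.08. In windows that took in 50 genes at this level on each side of a gene, the median of replicate 1 minus replicate 2 was 0.48 to 0.73 in the 300 windows inside the run and −0.41 to 0.34 in the 12553 windows outside it. For replicate 3 minus replicate 2 the windows gave 0.29 to 0.43 inside and −0.32 to 0.22 outside. No window outside reached the lowest one inside in these differences, which the choice of the run used. For replicate 1 minus replicate 3 the windows overlapped, with 0.21 to 0.35 inside and −0.14 to 0.32 outside. The longest unbroken stretch of members with replicates 1 and 3 above replicate 2 was 31, from Ccrd_010759 to Ccrd_010813.

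**Figure D3:**
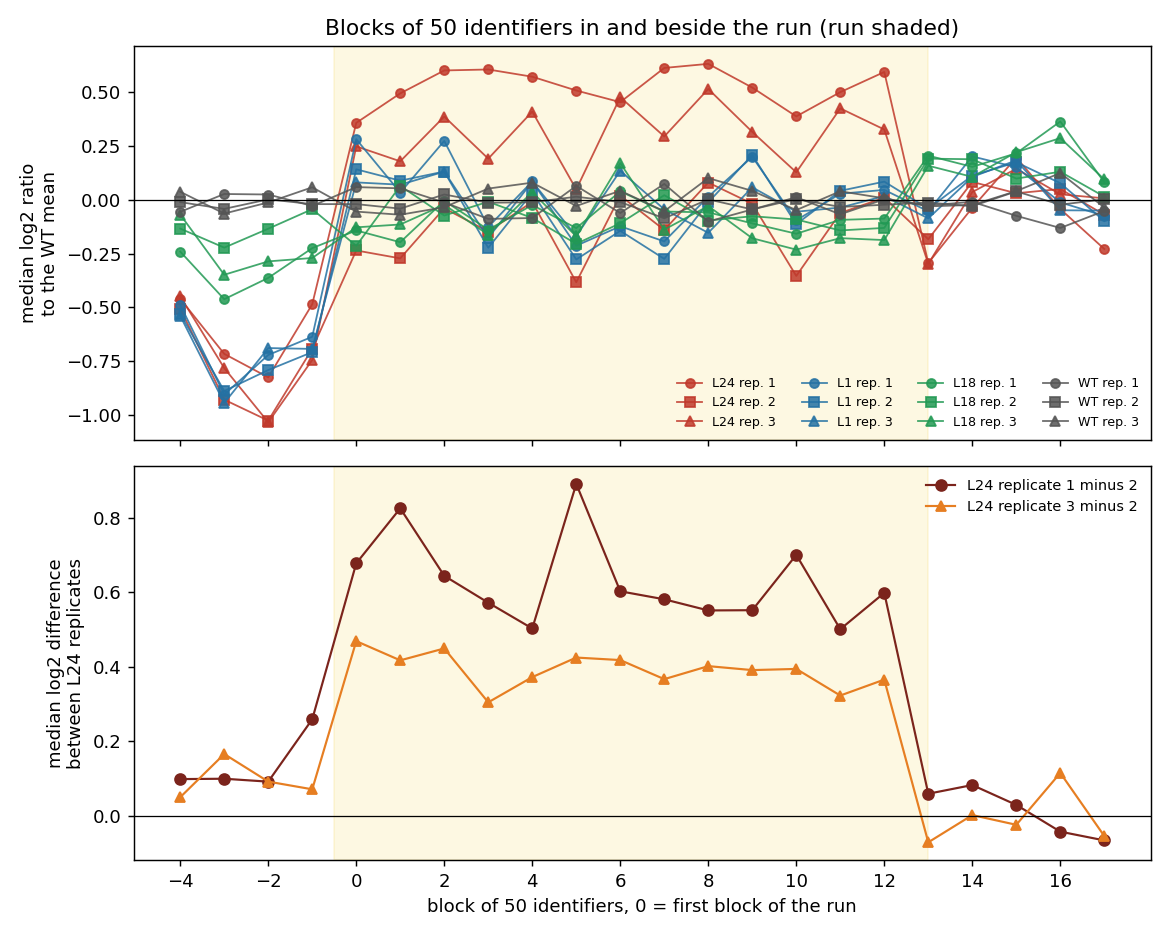
Blocks of 50 identifiers (x axis, 0 is the first block of the run, shaded) with the median log2 ratio to the WT mean of each sample (upper y axis) and the median log2 difference of L24 replicates 1 and 3 from replicate 2 (lower y axis). L24 replicate 1 stays between 0.36 and 0.63 in blocks 0 to 12 and drops to −0.29 in block 13, while the preceding block has 0.26 for replicate 1 minus replicate 2.

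In their gene models the members were close to other genes. They had a median exon length of 1356.5 bases, against 1293 in the other genes, and 51.8% lay on the plus strand, against 49.9%. The level of 3 in log2 CPM was reached by 59.9% of members, against 49.4%. Split into 3 classes by mean level, the members had medians of 0.52, 0.52 and 0.73 for replicate 1 minus replicate 2, from low to high. Members on the plus strand had 0.56 and those on the minus strand 0.59. The spread between replicates, as the median SD of log2 values, was 0.34 in the run and 0.22 outside it in L24, 0.16 and 0.16 in L1, 0.20 and 0.20 in L18, and 0.18 and 0.19 in WT.

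Exon length went along with the difference between L24 replicates 1 and 2, both in the run and outside it. From the shortest to the longest of 3 length classes of members the median of replicate 1 minus replicate 2 was 0.80, 0.55 and 0.46. In genes outside the run of the same length classes it was 0.17, 0.01 and −0.22. Replicate 3 minus replicate 2 gave 0.43, 0.35 and 0.33 in the run and 0.02, −0.04 and −0.08 outside. Within every length class the run lay above the genes outside. In an alternative added after the data were seen, each member was set against the outside genes of its own class. The medians were then 0.61 for replicate 1 minus replicate 2 and 0.40 for replicate 3 minus replicate 2. For replicate 1 minus replicate 3 the median was 0.21, against 0.26 without this step. The choice of the run used these differences, so that nothing is read from the run lying above the genes outside.

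**Figure D4:**
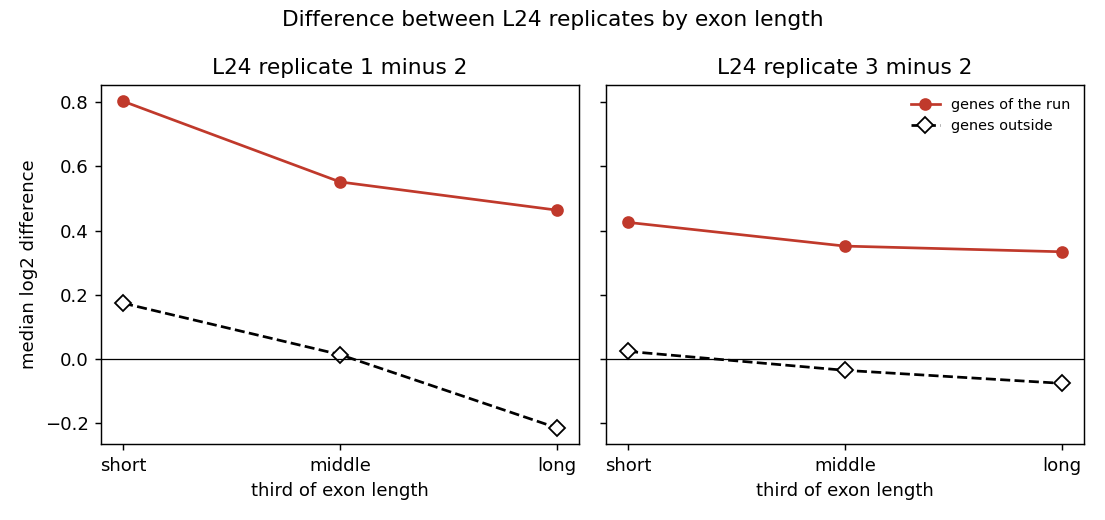
Median log2 difference (y axis) of L24 replicate 1 minus 2 (left) and 3 minus 2 (right) by length class of exons (x axis, short to long), for genes of the run (filled) and genes outside it (open). Both lines fall with exon length on the left, and the run stays above the genes outside in every class, at 0.80 against 0.17 in the shortest and 0.46 against −0.22 in the longest.

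The order replicate 1, replicate 3, replicate 2 in L24 held for 70.5% of the 400 members and 28.3% of all genes at their level. The choice of the run set it, so that nothing is read from its share among the genes with the highest levels. Among the 10 members with the highest mean FPKM, 8 had this order. The first is Ccrd_010965 (scaffold 670, bases 190756 to 191642, minus strand), with 7577, 6076 and 6938 FPKM in L24, 3727, 2549 and 3447 in L1, 3297, 1592 and 2984 in L18 and 1498, 1513 and 2031 in WT. All L24 samples lay above all others for this gene, so that replicate 2 stood out less from its own line than from the rest. Ccrd_011349 (scaffold 99, bases 365151 to 368137, plus strand) had 1945, 828 and 1192 FPKM in L24, 1131, 1095 and 1020.4 in L1, 1242, 1354 and 978 in L18 and 1315, 1204 and 1036 in WT. Here replicate 1 was the highest and replicate 2 the lowest of all 12 samples.

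Ccrd_010742 (scaffold 233, bases 256521 to 259146, minus strand) had 2951, 1509.8 and 2123 FPKM in L24, 1626 to 1813 in L1, 1516 to 1787 in L18 and 902 to 1666 in WT. Ccrd_010861 (scaffold 1744, bases 69040 to 71851, plus strand) had 1552, 799.7 and 1000.2 FPKM in L24, 871 to 899 in L1, 427 to 620.1 in L18 and 512 to 779 in WT. In FPKM, replicates 1 and 3 were above the other 9 samples for both genes and replicate 2 among them, though in normalized counts WT replicate 1 (45806) exceeded L24 replicate 3 (45348) for Ccrd_010742. Ccrd_010883 (2209, 1108 and 1512 FPKM in L24) and Ccrd_010795 (1503, 737 and 1075) had the order of the run with WT samples as high as 2487 and 1603 FPKM. Ccrd_011112 had 922, 712 and 851 FPKM in L24, against 789 to 939 in WT, and did not separate the groups.

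Ccrd_011240, annotated as the chloroplast thiamine thiazole synthase that makes the thiazole ring of vitamin B1, had 770.2, 398 and 562 FPKM in L24, 544, 486 and 514 in L1, 715, 706 and 469 in L18 and 1337, 1229.7 and 1061 in WT. All 9 samples of the lines were below all 3 of WT, and the order of the run was seen within L24. It fell in L1 (log2 fold change −1.34, SE 0.27, adjusted p = 0.0012) and in L18 (−1.03, SE 0.26, adjusted p = 0.011) in the quasi-likelihood test of edgeR, Benjamini-Hochberg adjusted across all 20024 genes.

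The members in which L24 replicate 2 fell furthest below both other replicates were Ccrd_011229, Ccrd_011014, Ccrd_010982, Ccrd_010737 and Ccrd_010755. Ccrd_011229 had 247, 33.2 and 151 normalized counts in L24 replicates 1, 2 and 3, 36.3, 40.4 and 27.6 in L1, 535, 318 and 302 in L18 and 289, 354 and 322 in WT. Replicate 2 thus had the level of L1 and the other L24 samples came nearer to that of L18 and WT. Ccrd_011014 codes for a protein with a nucleotidyl transferase domain and carries the GO term of glucose-1-phosphate adenylyltransferase, the enzyme that makes ADP-glucose for starch. It had 504, 156 and 377 normalized counts in L24, 369.9, 389 and 362 in L1, 487, 251 and 452 in L18 and 92.0, 99.6 and 57.8 in WT, so that every sample of the lines was above every WT sample, replicate 2 of L24 included. Ccrd_010982 had 2578, 564 and 1289 in L24, and Ccrd_010737 had 259, 99.7 and 219, against 450.4 to 588 and 145 to 182 in WT. Ccrd_010755 had 742, 216 and 471 in L24 and 202 to 531 in WT.

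The members that went furthest the other way included genes that differed between the lines and WT in other samples too. Ccrd_010946 had 389, 2165 and 645 normalized counts in L24, 201, 141 and 351 in L1, 293, 214 and 459.9 in L18 and 13.5, 0.986 and 18.2 in WT, and was the single member with replicate 1 below replicate 2 by more than 1 on the log2 scale. Ccrd_011096, a NAC transcription factor, had 204, 336 and 238 in L24, 399, 438 and 711 in L1, 237, 309 and 217 in L18 and 185, 129 and 214 in WT. Ccrd_011321, a protein kinase, had 4268, 5139 and 4343 in L24 and 4404, 4239 and 4233 in L1, 1988 to 2149 in L18 and 1383 to 1944 in WT. These 3 genes were at their highest in replicate 2 among the L24 samples, and for Ccrd_011096 and Ccrd_011321 the step was 0.24 to 0.71 on the log2 scale. Ccrd_011260 (2519, 3524 and 2722 in L24) and Ccrd_011390 (105, 179 and 147) complete them.

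One member had at most 3 counts in one L24 replicate and at least 30 in another. Ccrd_010974 on scaffold 172 had 32, 2 and 16 raw counts in L24 replicates 1, 2 and 3, 23, 25 and 9 in L1, 4, 1 and 8 in L18 and 6, 10 and 9 in WT. Replicate 2 of L18 was as low as replicate 2 of L24. At such counts the difference within L24 rests on few reads, and the gene was not called in L1 or L18.

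In the fit to all 12 samples, smaller shares of the run than of all genes were called in L1 and L18. In the quasi-likelihood test of edgeR, Benjamini-Hochberg adjusted across 20024 genes and called at 0.05, 184 of the 545 tested members (33.8%) were called in L1 against WT, where 39.7% of all genes were called. Of these 94 rose, where 19.3% of all genes rose, and 90 fell, where 20.4% of all genes fell. In L18 against WT, 93 members (17.1%) were called, where 25.3% of all genes were called. Of these 50 rose, where 12.5% of all genes rose, and 43 fell, where 12.8% of all genes fell. Without WT replicate 2 the count in L18 was 61. The estimate of spread included L24, whose replicates differed more in the run (median SD 0.34) than outside it (0.22). In a fit without the 3 L24 samples, 203 members were called in L1 and 107 in L18. The shares over all genes in that fit are not at hand, so that nothing is read from the smaller shares. The 3 samples of the line lay on one side of all 3 WT samples in 277 members for L1 (50.8%, where 53.9% of all genes did so) and in 195 for L18 (35.8%, where 39.9% did so). The median fitted log2 fold change of the 545 members was 0.03 in L1 (0.02 over all genes) and −0.08 in L18 (0.01 over all genes).

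Between L1 and L18 the share of members called was close to that of all genes. In L1 against L18, 171 members (31.4%) were called, where 33.0% of all genes were called, 95 of them higher in L1 (16.1% of all genes) and 76 lower (16.9% of all genes), and the samples of the lines did not overlap in 275 members (50.5%, 47.7% of all genes). Called in both L1 and L18 against the same WT samples were 49 members (8.99%, where 15.8% of all genes were), 23 of them higher in both (4.22%, 6.44% of all genes), 20 lower in both (3.67%, 7.65% of all genes) and 6 in opposite directions (1.10%, 1.73% of all genes). Called in L1 only were 135 (24.8%, 23.9% of all genes), in L18 only 44 (8.07%, 9.51% of all genes) and in neither 317 (58.2%, 50.8% of all genes). In L24 against WT the same fit called 210 members, 164 higher and 46 lower, where 39.9% of all genes were called, 19.3% higher and 20.7% lower, and the groups did not overlap in 236 (43.3%, 50.8% of all genes). The run was chosen from this comparison, and nothing is read from these counts.

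The pattern within L24 was seen in members called and not called in the other lines. The 69 of the 400 members that rose in L1 had medians of 0.32 for L24 replicate 1 minus 2 and 0.31 for replicate 3 minus 2, the 70 that fell had 0.70 and 0.42, and the 261 not called had 0.63 and 0.38. For L18 the medians were 0.56 and 0.42 in 32 members that rose, 0.59 and 0.43 in 32 that fell and 0.57 and 0.37 in 336 not called. All of these medians were above 0, and replicate 1 minus 2 was smallest in members that rose in L1. The choice of the run used these differences, so that nothing is read from their sign.

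Among the largest rises in L1 was that of Ccrd_011188 (scaffold 29, bases 427886 to 428203, plus strand), a small protein with an AAI domain, the fold of lipid transfer proteins and seed amylase inhibitors, listed under fatty acid binding and systemic acquired resistance. It had 194, 239 and 515 normalized counts in L24, 16299.9, 16461 and 47838 in L1, 1285, 818 and 396 in L18 and 56.4, 22.7 and 21.4 in WT. No line overlapped with WT or with another line except that L18 replicate 3 lay below L24 replicate 3. In edgeR's quasi-likelihood test the log2 fold change was 9.67 in L1 (SE 0.74, adjusted p = 4.2e-07) and 4.66 in L18 (SE 0.63, adjusted p = 0.00011). Without L1 replicate 3 it was 8.96 in L1.

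A pair of neighbouring genes on scaffold 30 for proteins with a Knot1 domain, the cysteine-rich fold of defensins and related defence peptides, went opposite ways. Ccrd_010897 (bases 519141 to 519991, minus strand) had 2324, 1812 and 3087 normalized counts in L24, 2020.1, 2698 and 1704 in L1, 39706, 23119 and 41942 in L18 and 62956, 85362 and 88217 in WT. It fell in L1 (log2 fold change −5.20, SE 0.32, adjusted p = 6.9e-08, edgeR's quasi-likelihood test) and in L18 (−1.17, SE 0.27, adjusted p = 0.0054). Ccrd_010898 (bases 546079 to 546537, minus strand) had 58.0, 137 and 46.6 in L24, 219.9, 226 and 567 in L1, 65.5, 48.4 and 44.5 in L18 and 0, 0 and 1.07 in WT. With 1 raw count in WT, the ratio to WT was 849 in L1 (95% counting interval 152 to 33549) and 147 in L18 (26.0 to 5840), and the rise was called in both (adjusted p = 1.5e-06 in L1 and 0.00018 in L18, edgeR's quasi-likelihood test). The fitted log2 fold change in L1 was 9.43 and, without WT replicate 3, which held that count, 11.40, and in L18 it was 6.77 and 8.74. As members of one family, these genes may share reads, and how the counts were assigned between them was not tested.

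**Figure D5:**
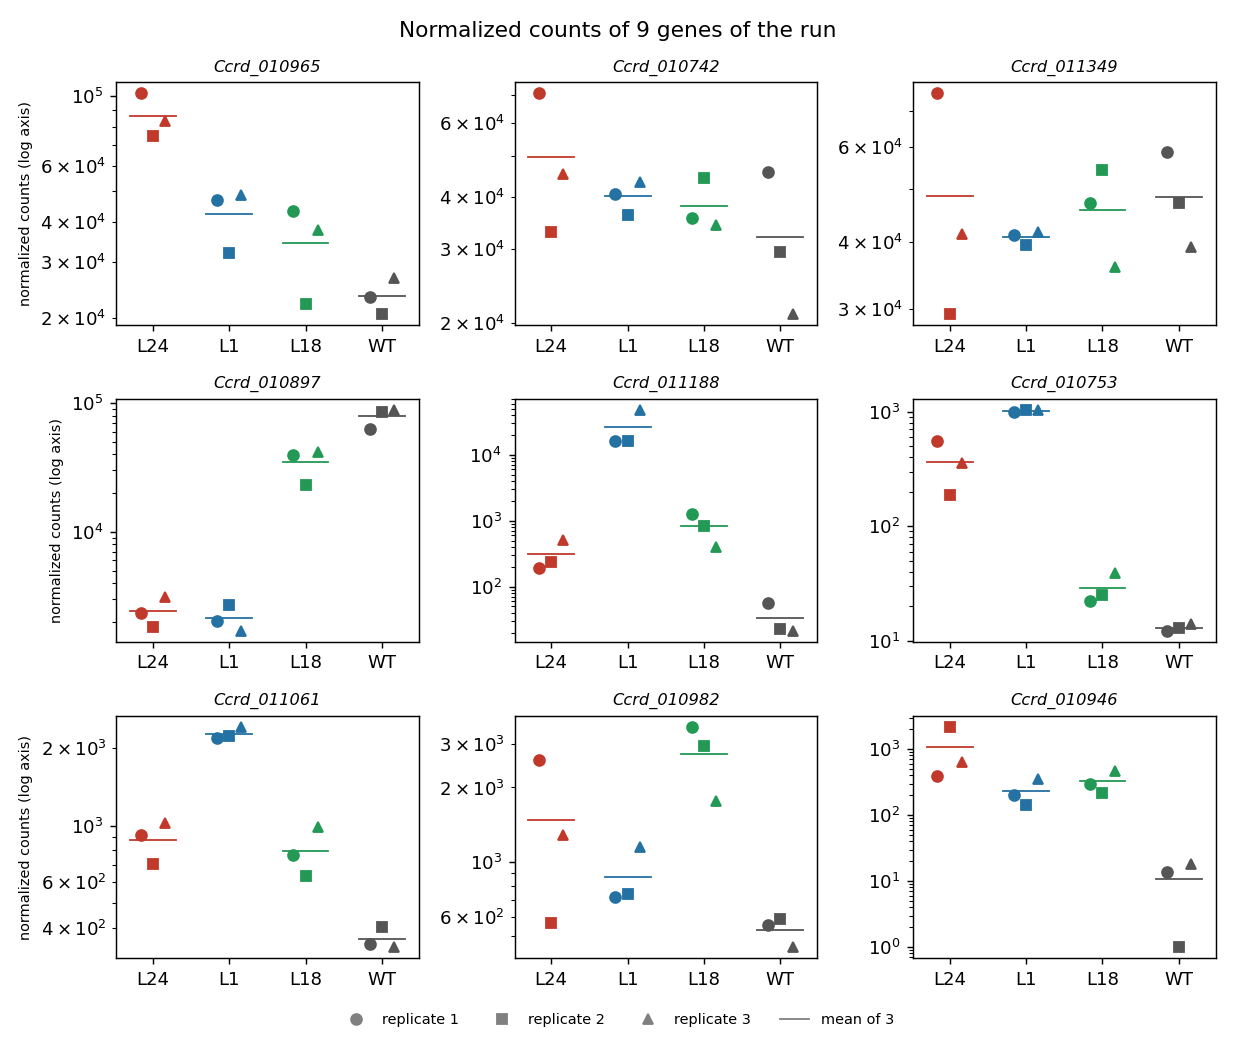
Normalized counts (y axes, log scale) of 9 genes of the run in L24, L1, L18 and WT (x axes); points are replicates 1 (circle), 2 (square) and 3 (triangle), and lines the means of 3. In Ccrd_010742, Ccrd_011349 and Ccrd_010982 replicate 2 is the lowest L24 sample by a wide margin, in Ccrd_010946 it is the highest, and Ccrd_010897, Ccrd_011188, Ccrd_010753 and Ccrd_011061 are named for their change in L1.

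The 2 members described as dioxygenases of the Fe2OG type, a family of iron enzymes that oxidise hormones and other plant metabolites, rose in L1, but the list that gives the descriptions holds only genes the study had selected as changed in L1, so that their rise is no independent finding. Ccrd_010753 (scaffold 4052, bases 36843 to 38112, minus strand) had 551, 186 and 355 normalized counts in L24, 1002, 1031 and 1028 in L1, 22.4, 25.2 and 38.8 in L18 and 12.3, 12.8 and 13.9 in WT, and rose in L1 by a log2 fold change of 6.28 (SE 0.39, adjusted p = 7.2e-08, edgeR's quasi-likelihood test). Ccrd_011041 on scaffold 259 had 1437, 924 and 1204 in L24, 805, 409 and 1357 in L1, 38.6, 12.6 and 33.1 in L18 and 6.13, 11.8 and 17.1 in WT, and rose in L1 by 6.15 (SE 0.51, adjusted p = 9.6e-07, edgeR's quasi-likelihood test). Neither was called in L18, with adjusted p = 0.07 for Ccrd_010753 and 0.14 for Ccrd_011041 by the same edgeR test. In both genes L24 had the order of the run and lay far above WT in every replicate.

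Other members with the largest rises in L1 were nearly silent in WT. Ccrd_011016, of unknown function, had 299, 328 and 268 normalized counts in L24, 119, 104 and 292 in L1, 4.49, 5.26 and 8.52 in L18 and 1.23, 0 and 4.28 in WT, and rose in L1 by a log2 fold change of 6.45 (SE 0.61, adjusted p = 2.6e-06, edgeR's quasi-likelihood test). That fold was 5.85 without L1 replicate 3, 5.84 without WT replicate 2 and 7.98 without WT replicate 3. Ccrd_010922, a protein with an RNase III domain, which cuts double-stranded RNA, had 34, 18 and 9 raw counts in L24, 28, 27 and 81 in L1 and 0 in every sample of L18 and WT. Against a floor of 3 counts over the WT group it was at least 38.2-fold higher in L1 (adjusted p = 0.0012, edgeR's quasi-likelihood test). Most of its counts in L1 came from replicate 3, without which it was still called (adjusted p = 0.0017, edgeR). It was seen in all samples of L24 and L1 and in none of L18 and WT.

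The largest falls in L1 included genes for a cell wall enzyme and for a light-harvesting protein. Ccrd_010929, an endoglucanase, an enzyme that cuts cellulose-like chains, had 23, 2 and 15 raw counts in L24, 0, 0 and 0 in L1, 79, 52 and 25 in L18 and 16, 37 and 22 in WT, and was at least 29.7-fold lower in L1 than in WT against a floor of 3 counts over the group (adjusted p = 0.0006, edgeR's quasi-likelihood test). Ccrd_010906 was counted in WT alone, with 15, 20 and 16 raw counts there and 0 in all 9 samples of the lines, and stood at least 20.2-fold below WT in L1 and 19.2-fold in L18 (adjusted p = 0.0012 and 0.0022, edgeR's quasi-likelihood test). Ccrd_011352 on scaffold 99 had 115, 17.7 and 42.4 normalized counts in L24, 5.45, 5.06 and 3.76 in L1, 254, 447 and 163 in L18 and 273, 222 and 177 in WT. It fell in L1 by 5.49 on the log2 scale (SE 0.66, adjusted p = 2.1e-05, edgeR's quasi-likelihood test), and within L24 replicate 2 was the lowest.

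Ccrd_011107, a chlorophyll a-b binding protein of the light-harvesting antenna, had 6.10, 0 and 9.53 normalized counts in L24, 0.909, 2.17 and 0 in L1, 3.59, 5.26 and 5.68 in L18 and 31.9, 43.4 and 18.2 in WT. It fell in L1 (log2 fold change −4.58, SE 0.84, adjusted p = 0.00068, edgeR's quasi-likelihood test) and in L18 (−2.66, SE 0.69, adjusted p = 0.011), and leaving out WT replicate 2 ended the call in L18 (adjusted p = 0.057 in edgeR, range over 17 alternatives 0.0016 to 0.057). In L1 the log2 fold change was −5.59 without L1 replicate 2. Its direction was against that of the 17 light-harvesting and photosystem genes as a group, whose sum was higher in L1 and L18 than in WT. Names for the 17 genes came only from lists of genes the study had selected, so that this contrast is not an independent finding.

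In L18 the gene with the largest fitted rise varied widely between replicates. Ccrd_011172 on scaffold 29 had 60, 5 and 172 raw counts in L18, 0, 1 and 0 in L1, 1, 1 and 0 in L24 and none in WT, and was at least 69.9-fold higher in L18 than in WT against a floor of 3 counts over the group (adjusted p = 0.0017, edgeR's quasi-likelihood test). The fitted log2 fold change was 9.22 and, without L18 replicate 3, 7.90, where it was still called (adjusted p = 0.004, edgeR). Ccrd_010946, given above for L24, rose in L18 by a log2 fold change of 4.91 (SE 0.78, adjusted p = 0.00041, edgeR's quasi-likelihood test), or 5.57 without WT replicate 3, and in L1 by 4.42 (SE 0.78, adjusted p = 0.00052). Ccrd_010751 had 111, 32 and 62 raw counts in L24, 29, 47 and 29 in L1, 18, 17 and 24 in L18 and 1, 0 and 1 in WT, a ratio to WT of 26.1 in L18 (95% counting interval 6.92 to 221) and 44.2 in L1 (11.9 to 370), called in both by edgeR's quasi-likelihood test (adjusted p = 0.00061 in L18 and 5.6e-05 in L1). For Ccrd_010946 and Ccrd_010751 every sample of the lines exceeded every WT sample.

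Among the falls in L18, Ccrd_011371 on scaffold 99 had 17.9, 11.6 and 6.62 normalized counts in L18, against 67.4, 67.1 and 105 in WT, and fell by 2.71 on the log2 scale (SE 0.39, adjusted p = 0.00019, edgeR's quasi-likelihood test). In L1 it had 105, 119 and 121 and in L24 21.4, 19.9 and 44.5. Ccrd_010780 had 21.5, 20.0 and 9.46 in L18 and 99.3, 68.1 and 86.6 in WT and fell by 2.31 (SE 0.53, adjusted p = 0.0058, edgeR's quasi-likelihood test), and in L24 it had 40.7, 5.54 and 16.9 in the order of the run. Ccrd_011091 had 0, 0 and 3.79 in L18 and 33.1, 13.8 and 35.3 in WT (log2 fold change −4.28, SE 0.85, adjusted p = 0.0022, edgeR's quasi-likelihood test). Its counts in L18 came from replicate 3 alone, and without that sample the fitted value, which then depends on the prior count, was −7.77.

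Descriptions were at hand for 52 members, all from a list of genes that the study had selected as changed in L1 on these samples, so that their counts in L1, and those in L18 against the same WT samples, are not independent evidence. Of the 52, 33 rose and 15 fell in L1, and 13 rose and 7 fell in L18, where 32 were not called. Over all genes 19.3% rose and 20.4% fell in L1, and 12.5% rose and 12.8% fell in L18. Set into 10 families by these descriptions, 26 members were grouped, and the same limit holds for each family. Of 4 protein kinases, which pass signals on by phosphorylation, 3 rose and 1 fell in L1, and 2 rose in L18. Of 3 transcription factors, the NAC proteins Ccrd_011094 and Ccrd_011096 and the bZIP protein Ccrd_011129, all 3 rose in L1 and Ccrd_011129 alone was called in L18, where it rose. All 3 proteins with a RING domain, the part of ubiquitin ligases that binds the conjugating enzyme, rose in L1 and 1 of them in L18.

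Ccrd_011094 had 1534, 1065 and 1194 normalized counts in L24, 1152, 854 and 2631 in L1, 169, 122 and 150.5 in L18 and 170.5, 177 and 157 in WT. It rose in L1 by a log2 fold change of 3.20 (SE 0.34, adjusted p = 7.3e-06, edgeR's quasi-likelihood test) and was not called in L18 (−0.19, SE 0.33, adjusted p = 0.72). L24 and L1 thus stood apart from L18 and WT without overlap. Ccrd_011061, a protein kinase with a carbohydrate-binding part, had 917, 706 and 1023 in L24, 2200.0, 2227 and 2423 in L1, 766, 636 and 988 in L18 and 346, 402 and 335 in WT, and rose in L1 (log2 fold change 2.66, SE 0.19, adjusted p = 2.2e-07, edgeR's quasi-likelihood test) and in L18 (1.14, SE 0.18, adjusted p = 0.00039). Ccrd_011164, described as an Apple-like protein with serine/threonine kinase activity, had 107, 156 and 93.2 in L24, 234, 285 and 260.5 in L1, 61.0, 47.3 and 182 in L18 and 14.7, 13.8 and 28.9 in WT, and rose in both L1 and L18.

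Of 4 genes for cell wall enzymes, 2 rose and 2 fell in L1, and 2 rose and 1 fell in L18. For 2 of them the lines moved in opposite directions. The glycoside hydrolase Ccrd_011252 had 207, 234 and 279 normalized counts in L24, 336, 268 and 344 in L1, 56.5, 30.5 and 49.2 in L18 and 92.0, 85.8 and 88.8 in WT, and rose in L1 (log2 fold change 1.83, SE 0.21, adjusted p = 1.7e-05, edgeR's quasi-likelihood test) while it fell in L18 (−0.96, SE 0.23, adjusted p = 0.007). The pectinesterase Ccrd_011397, which removes methyl groups from cell wall pectin, had 969, 515 and 580.5 in L24, 515, 574 and 634 in L1, 2632, 2869 and 2123 in L18 and 1836, 1681 and 1499 in WT, and fell in L1 (−1.54, SE 0.21, adjusted p = 7.2e-05, edgeR's quasi-likelihood test) while it rose in L18 (0.60, SE 0.21, adjusted p = 0.046). The remaining families had 1 to 3 members each, with 2 of 3 transporters lower and 1 higher in L1 and none called in L18, the kinesin Ccrd_010834 higher in L1, and the ribosomal protein Ccrd_010768 lower in L1. Of 2 photosynthesis genes, Ccrd_011107 fell in both L1 and L18, while Ccrd_011332 was not called in L1 and rose in L18.

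The study listed 14 members under a GO term among the genes it took as changed in common, again a choice made on these samples. Calls in both lines therefore follow largely from that choice. Over all genes 6.44% were higher in both L1 and L18, 7.65% were lower in both and 50.8% were called in neither. In the fit used here, 10 of the 14 rose in both L1 and L18, 3 fell in both, and Ccrd_011205, a protein with an RNA methyltransferase domain, was called in neither, with 0, 4.43 and 5.30 normalized counts in L24, 22.7, 13.7 and 2.50 in L1, 18.8, 9.47 and 20.8 in L18 and 27.0, 41.4 and 43.9 in WT. Ccrd_010917, a subunit of condensin, the complex that packs mitotic chromosomes, had 253, 219 and 344 in L24, 204, 185 and 96.4 in L1, 176, 146 and 205 in L18 and 78.5, 113 and 94.1 in WT, and rose in L1 (log2 fold change 0.77, SE 0.27, adjusted p = 0.038, edgeR's quasi-likelihood test) and in L18 (0.88, SE 0.27, adjusted p = 0.03). Ccrd_010981, listed under DNA binding and transcription, had 397, 171 and 254 in L24, 205, 183 and 180.3 in L1, 229, 252 and 223 in L18 and 142, 75.9 and 86.6 in WT. It rose in both lines, and L24 replicate 2 was again the lowest of its line. Ccrd_011066 and Ccrd_011074 rose in both, with 611 to 727 and 336 to 610.2 normalized counts in L24, against 162 to 251 and 165 to 188 in WT. The carotenoid oxygenase Ccrd_011032, of a family that cleaves carotenoids, fell in both, with 15.5 to 32.5 in L24, 1.44 to 3.76 in L1, 6.62 to 30.5 in L18 and 34.2 to 66.1 in WT.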

How the data were processed

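RNA-seq libraries of 12 callus samples were analysed. Per the study's methods, the authors trimmed the reads with BBDuk, aligned them with STAR to the cardoon genome CcrdV1, and selected genes with HTSFilter and edgeR. The counter and its strand setting are not given in the sources used here. The deposited count table holds whole reads per gene, not normalized. Deposited FPKM were computed by the authors from exon length and library total, since values rebuilt that way equalled the deposited ones. Names and GO terms came from the study's gene lists, in copies that hold only genes it had selected. No sequence is printed.

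Counts were scaled by TMM (edgeR 4.0.16, limma 3.58.1, DESeq2 1.42.0 and R 4.3.3, figures in Python with matplotlib). Genes had to exceed 10.5 normalized counts in at least 1 sample, a threshold found by the rule of HTSFilter written anew. Log2 ratios used a pseudocount of 1. Comparisons were contrasts of 1 fit of edgeR's quasi-likelihood test to all 12 samples, Benjamini-Hochberg adjusted over 20024 genes at 0.05. The SE is the log2 fold change over the square root of F. Bounds use a floor of 3 counts over a group, and intervals (exact binomial) and floors cover counting error only. Scripts were tested on simulated data. The deposited depth of 12505275 to 19509803 counts per sample limits genes of few counts.

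Genes named are the 10 members with the highest mean FPKM, the 5 largest rises and falls in L1 and in L18 among called members without overlap with WT, the 5 members with L24 replicate 2 furthest below and above the others, the 3 genes inside and outside each end, the GO members and 1 member near 0 in 1 L24 replicate. Members of families were added by description, and those described singly among them were picked after their values were seen. The 675 identifiers of the range held 669 genes, 1 left out by the rule. The members and lists were chosen with earlier results of these data known. Replicate numbers did not pair the samples. Alternatives were other scalings, filters, tests, pseudocounts and levels, fits with fewer samples or a replicate block, and shorter runs.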

Additional observations from a re-analysis of the deposited data

Results flagged for a closer look

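For 25 members, among those named by rule and the family members described singly, the change against WT differed between L1 and L18 by a test of L1 against L18 in the same fit (quasi-likelihood test of edgeR, Benjamini-Hochberg adjusted across 20024 genes). Of all genes, 33.0% were called in this comparison. Many of the 25 were named for a large change in L1 or L18, or picked after their values were seen. Their number thus follows from the choice, and nothing is read from it. The change in L1 was higher for Ccrd_011188 (log2 difference 5.01, adjusted p = 2.2e-05), Ccrd_010898 (2.66, adjusted p = 0.00039), Ccrd_010922 (8.58, adjusted p = 0.0013), Ccrd_011016 (4.77, adjusted p = 9.2e-06), Ccrd_010753 (5.14, adjusted p = 4.2e-07), Ccrd_011041 (4.90, adjusted p = 3.6e-06), Ccrd_011091 (4.47, adjusted p = 0.0011) and Ccrd_011371 (3.23, adjusted p = 2.8e-05). It was also higher for Ccrd_011094 (3.39), Ccrd_011252 (2.79), Ccrd_011061 (1.52), Ccrd_011164 (1.42), Ccrd_011321 (1.05), Ccrd_011096 (1.02) and Ccrd_011074 (0.72), with adjusted p of 1.4e-06 to 0.019 in edgeR.

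It was lower for Ccrd_010929 (−8.64, adjusted p = 0.00021), Ccrd_011352 (−5.85, adjusted p = 1.6e-05), Ccrd_010897 (−4.03, adjusted p = 7.5e-07) and Ccrd_011172 (−7.45, adjusted p = 0.0013). It was also lower for Ccrd_011229 (−3.44), Ccrd_011032 (−2.63), Ccrd_011397 (−2.15), Ccrd_010982 (−1.66), Ccrd_010731 (−1.37) and Ccrd_010737 (−1.26), with adjusted p of 7e-06 to 0.0089 in edgeR. In each of the 25, all 3 samples of L1 lay on one side of all 3 of L18, as they did in 47.7% of all genes. The fitted sizes for Ccrd_010922, Ccrd_010929 and Ccrd_011172 depend on the prior count, since a group is at or near 0. With 3 samples a group, no sample was checked as an outlier of its own group.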

How the results depend on the processing

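The higher level of L24 replicates 1 and 3 was kept under every scaling, pseudocount, level and shorter run tried, with medians of 0.46 to 0.55 in replicate 1, −0.15 to 0.07 in replicate 2 and 0.17 to 0.47 in replicate 3. Results that moved by more than the spread were the medians of L1 and L18, which were small, and some differences between L24 replicates. The calls in L18 against WT also moved, from 93 with all samples to 61 without WT replicate 2. Centred on the genes outside the run, the mean of the medians was 0.023 in L1 and −0.064 in L18. With FPKM it was 0.076 in L1 and −0.0047 in L18, and at a level of 5 or more in log2 CPM it was −0.10 in L1 and −0.10 in L18. At that level, L24 replicate 1 minus 2 was 0.67 (0.58 in the main setting) and replicate 1 minus 3 was 0.34 (0.26 in the main setting). Leaving out 1 WT replicate moved the mean of L18 between −0.078 and −0.056. Leaving out 1 sample at a time, the calls ranged from 139 to 203 in L1 against WT, 61 to 112 in L18 against WT, 165 to 234 in L24 against WT and 130 to 190 in L1 against L18, and the fewest in L18 came without WT replicate 2. With a replicate block the calls were 177, 86, 199 and 162 in the same order, and 174, 81, 195 and 160 of these were shared with the fit without it. Of 18 pairs of samples with the same number, 3 had deviations correlated over 0.1 (range −0.23 to 0.30), so that the numbers are not taken to pair the samples. Of the 20 named changes in L1 or L18, the only call lost under an alternative was that of Ccrd_011107 in L18 without WT replicate 2. The cause of these shifts was not tested. Genes of few counts are limited by depth.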
